A study of Mus musculus with 60 samples.

Results

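Blastulas reconstructed from cumulus cell nuclei (NTC) were compared with blastulas that had developed in vivo, across all genes of a table of RPKM values (reads on a gene per kilobase of its exons, scaled for sequencing depth). The comparison takes 6 of the 60 libraries of the series, 3 of the NTC blastula group and 3 of the in vivo blastula group, and each library is a single mouse embryo. The series holds 20 groups of 3 libraries, namely in vivo embryos, NTC embryos and embryos made with fibroblast nuclei (NTM) at 6 stages, and both donor cell types, and it asks where nuclear transfer (NT) embryos depart from in vivo development. The in vivo embryos came from C57BL/6 females mated with DBA2 males. For the NTC embryos, oocytes of superovulated BDF1 females were enucleated and given the nucleus of a cumulus cell (CC, a follicle cell that surrounds the oocyte) of a BDF1 female, activated with strontium in the presence of cytochalasin B and Scriptaid, a histone deacetylase inhibitor, and grown in G1 and then G2 medium. All groups carry the strain label BDF1, the cross of the C57BL/6 and DBA2 strains, and no mutation or transgene is given for any of them. Source of the nucleus, strain of the female that gave the oocyte, enucleation and injection differ together between the groups. So do mode of activation, cytochalasin B, Scriptaid, culture and sex of the nucleus. All of these cannot be told apart in the results that follow. Embryos were chosen by their morphology, and no label ties an embryo to an experiment, so a p-value here measures the spread between single embryos.

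The blastula has an outer trophectoderm, which pumps fluid into the cavity and later builds the placenta, and an inner cell mass that separates into epiblast and primitive endoderm. After nuclear transfer the oocyte has to reset the chromatin of a differentiated nucleus, and incomplete resetting of silenced regions, of imprints and of X inactivation is known in such embryos. Among the pathways described here, p53 is a transcription factor that is held low by Mdm2 and, once stabilised, switches on genes of cell cycle arrest, DNA repair and cell death. Cholesterol synthesis is governed by the SREBP factors, which are kept at the endoplasmic reticulum by Insig proteins while sterols are plentiful.

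The 6 libraries held 8556058 to 19030094 reads on genes (exact two-sided permutation test of the groups, p = 0.6), so that 3 reads on a 2 kb transcript, the upper limit for a listed 0, are worth 0.0788 to 0.175 RPKM by counting error alone. Even so, the NTC libraries listed 11771, 13000 and 11829 genes above 0 and the in vivo libraries 7808, 7804 and 7730. With all libraries thinned to the reads of the shallowest, NTC blastulas still had 11921 ± 525 genes above 0 (SD, n = 3) and in vivo blastulas 7531 ± 262, without overlap (exact permutation test, p = 0.1, the smallest that 3 against 3 allows). Across the genes tested, the Pearson correlation between a pair of libraries was 0.641 to 0.650 among in vivo blastulas, 0.849 to 0.902 among NTC blastulas and 0.623 to 0.694 between the groups, as a description over genes that share library and depth. Mitochondrial reads were 33.2% ± 5.75 of the total in NTC and 25.5% ± 8.14 in in vivo blastulas (exact permutation test, p = 0.3). The in vivo blastulas listed the fewest genes above 0 of all libraries in the series. The next lowest was NTM 4-cell replicate 2 with 8997, and in vivo morulas listed 10109, 10870 and 11069. The cause of these low numbers was not tested. In a single whole embryo, fewer cells of a type and less RNA per cell cannot be told apart.

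Which genes were called, and in which direction, depended on the filter for low genes. The test covered 9288 genes that averaged 0.5 RPKM or more over the 6 libraries. Of these, 879 (9.46%) were called, 818 (8.81%) higher in NTC and 61 (0.657%) lower. A call is an adjusted p under 0.05 (limma, Benjamini-Hochberg) with a difference of at least 1 on the log2(RPKM + 1) scale, which understates the change of low genes. With an average of 0.5 RPKM required in each group, 30 of 6228 genes (0.482%) were called, 13 higher (0.209%) and 17 lower (0.273%). The calls of that fit held no excess of higher genes, but 4147 of its differences were positive and 2081 negative. Its filter kept 160 of the 818 higher genes and 54 of the 61 lower genes. The 818 genes were mostly near or below detection in vivo and passed the filter through the NTC libraries: 159 were at 0 in all 3 in vivo libraries, 560 were below 0.5 RPKM in each of them, and the median of their group means was 0.0672 RPKM in vivo and 7.15 RPKM in NTC blastulas. The 61 lower genes were abundant in vivo, with a median of 124 RPKM there and 11.5 RPKM in NTC blastulas, and none of them was at 0 in all 3 NTC libraries. All 3 NTC libraries lay above all 3 in vivo libraries for 2841 genes (30.6%) and below them for 422 (4.54%).

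These calls rest on few libraries. Without NTC blastula replicate 2, a single gene (0.0113% of 8857), Ptp4a1, was called, while 2040 genes had an unadjusted p under 0.05. All 818 higher genes stayed positive and all 61 lower genes negative in that fit, each with an unadjusted p under 0.05. They were chosen on libraries that this fit shares, so this outcome was close to fixed in advance and gives the calls no support. The median difference over all genes tested was 0.85 (log2, NTC minus in vivo), and it was 0.33 after median-ratio scaling, which called 163 genes (1.86%). Of these, 87 (0.995%) were higher and 76 (0.869%) lower, so the higher share went from 93.1% to 53.4%, and 136 were among the 879.

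The largest rise was that of Rhox5, an X-linked homeobox gene of the reproductive homeobox cluster. It was at 0.169, 0.155 and 0.808 RPKM in the in vivo and 149.7, 268 and 120.0 RPKM in the NTC blastulas, in the order of replicates 1, 2 and 3 used throughout. Every in vivo embryo was below 1 RPKM and every NTC embryo far above it, a difference of 6.98 ± 0.63 (log2 ± SE; limma, adjusted p = 0.0218). Phlda3, a p53-induced repressor of Akt signalling, was at 0.286, 2.47 and 0.335 RPKM in the in vivo and 144, 122 and 66.2 RPKM in the NTC blastulas, and again the groups did not overlap (5.87 ± 0.70, adjusted p = 0.025). Gstp1, a glutathione transferase of detoxification, was at 2.69, 0.154 and 0.23 RPKM in the in vivo and 75.5, 106 and 73.6 RPKM in the NTC blastulas. The in vivo replicates 2 and 3 were near the level of a few reads, and its NTC libraries lay close together (5.61 ± 0.70, adjusted p = 0.025). Nab1, a corepressor of the Egr factors, was at 0.0155, 0.057 and 0.0425 RPKM in the in vivo and 46.5, 40.5 and 62.5 RPKM in the NTC blastulas, the in vivo libraries at the level of single reads and the NTC libraries well above (5.59 ± 0.58, adjusted p = 0.0228).

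**Figure D1:**
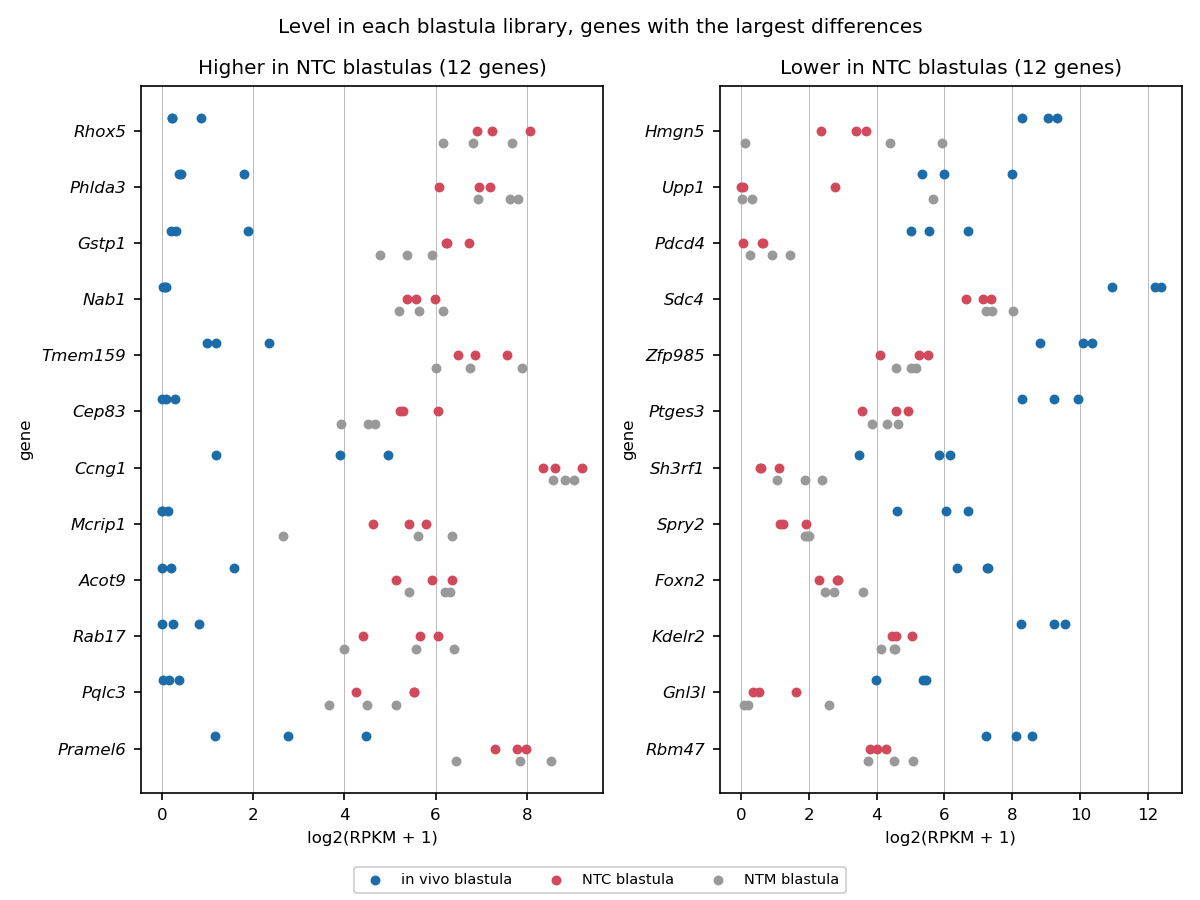
Level of the 12 named genes with the largest positive (left) and the 12 with the largest negative difference (right) in each blastula library, on a log2(RPKM + 1) axis; each point is 1 embryo, coloured by in vivo, NTC and NTM group. In every one of the 24 genes the 3 NTC points lie on one side of the 3 in vivo points.

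The other large rises covered unrelated functions. Tmem159, which sits on lipid droplets, was at 0.992, 1.27 and 4.07 RPKM in the in vivo and 89.3, 115 and 189.5 RPKM in the NTC blastulas (5.47 ± 0.67, adjusted p = 0.025). Cep83, a component of the distal appendages by which a centriole docks to the membrane, was at 0.213, 0 and 0.0583 RPKM in the in vivo and 65.3, 36.4 and 38.2 RPKM in the NTC blastulas (5.40 ± 0.60, adjusted p = 0.025). Neither gene overlapped between groups, and the in vivo level of Cep83 was near 0 where that of Tmem159 was about 1 RPKM or more. Ccng1, cyclin G1, was at 13.9, 29.9 and 1.26 RPKM in the in vivo and 391, 594 and 325 RPKM in the NTC blastulas, so the in vivo embryos themselves spread widely while all NTC embryos were higher (5.39 ± 0.96, adjusted p = 0.0273). Acot9, a mitochondrial acyl-CoA thioesterase, rose by 5.21 ± 0.72, Rab17, a small GTPase of epithelial membrane traffic, by 5.02 ± 0.69, and Mcrip1, a target of Erk signalling, by 5.24 ± 0.61, with adjusted p = 0.025 for each of them. Pramel6, a member of the PRAME family expressed in preimplantation embryos, was at 1.25, 21.3 and 5.77 RPKM in the in vivo and 252, 158 and 221 RPKM in the NTC blastulas (4.89 ± 0.87, adjusted p = 0.0273), and Pqlc3 rose by 4.92 ± 0.64. Pramel6 belongs to a family of similar genes, and reads of near copies may have been split between them.

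Fewer genes fell, and most of those had been abundant in vivo. Ptp4a1, a tyrosine phosphatase of the PRL family, was at 5149, 6181 and 4572 RPKM in the in vivo and 334, 304 and 437 RPKM in the NTC blastulas, every in vivo embryo far above every NTC embryo (-3.89 ± 0.21, adjusted p = 0.00171, the lowest of the comparison). Sdc4, a cell surface heparan sulphate proteoglycan, was at 1958, 5322 and 4671 RPKM in the in vivo and 141, 165 and 98.04 RPKM in the NTC blastulas and fell in the same clear way (-4.79 ± 0.42, adjusted p = 0.0218). Hmgn5, an X-linked nucleosome-binding protein, was at 309, 530.2 and 637 RPKM in the in vivo and 11.9, 4.13 and 9.41 RPKM in the NTC blastulas and had the largest fall among the named genes (-5.74 ± 0.58, adjusted p = 0.0228). Pdcd4, which holds back translation by binding the helicase Eif4a, was at 31.3, 45.8 and 103 RPKM in the in vivo and 0.533, 0.576 and 0.0383 RPKM in the NTC blastulas, below 1 RPKM in each NTC embryo (-5.31 ± 0.69, adjusted p = 0.025).

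Secretory pathway, chaperone and signalling genes were also among the 12 largest falls. Kdelr2, the receptor that returns proteins to the endoplasmic reticulum, was at 302, 743 and 595 RPKM in the in vivo and 21.1, 22.95 and 31.8 RPKM in the NTC blastulas (-4.30 ± 0.50, adjusted p = 0.025). Ptges3, the Hsp90 cochaperone p23, was at 308, 592 and 973 RPKM in the in vivo and 29.1, 22.8 and 10.95 RPKM in the NTC blastulas (-4.78 ± 0.61, adjusted p = 0.025). Neither gene overlapped between the groups. Spry2, an inhibitor of receptor tyrosine kinase signalling, was at 23.3, 64.8 and 102 RPKM in the in vivo and 1.24, 1.39 and 2.82 RPKM in the NTC blastulas (-4.33 ± 0.74, adjusted p = 0.0267). Upp1, uridine phosphorylase, was at 39.4, 61.9 and 254 RPKM in the in vivo and 5.79, 0 and 0.0499 RPKM in the NTC blastulas; its 3 NTC embryos differed widely, from a listed 0 to 5.79 RPKM, yet none reached the in vivo embryos (-5.49 ± 1.05, adjusted p = 0.0301). Zfp985, a zinc finger gene of a family with near copies, fell by 4.78 ± 0.58, and its reads may have been split between copies. Sh3rf1, a scaffold of Jnk signalling, the forkhead factor Foxn2, the nucleolar GTPase Gnl3l and the RNA-binding protein Rbm47 differed by -4.40, -4.31, -4.08 and -3.93, all without overlap. Gm2a, the lysosomal activator of ganglioside breakdown, was at 1589, 2794 and 2729.9 RPKM in the in vivo and 369.7, 326 and 388 RPKM in the NTC blastulas (-2.67 ± 0.27, adjusted p = 0.0228).

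Gene lists were read by their counts and medians beside those of all genes tested. Of the lists with at least 10 genes tested, 9 had a median above the 0.85 of all genes. Among these lists the highest medians were those of cholesterol synthesis (2.21) and of p53 and its targets (1.99), and the lowest that of cytosolic ribosomal proteins (-0.85). After median-ratio scaling these medians were 1.79, 1.75 and -1.54, against 0.33 for all genes, so that none of the 3 changed its side of the median gene. Many members passed the filter through the NTC libraries alone. Over the 11 cholesterol, 12 p53 and 77 ribosomal protein genes that averaged 0.5 RPKM in each group, the medians were 0.77, 2.09 and -0.85, against 0.48 for all genes of that fit.

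**Figure D2:**
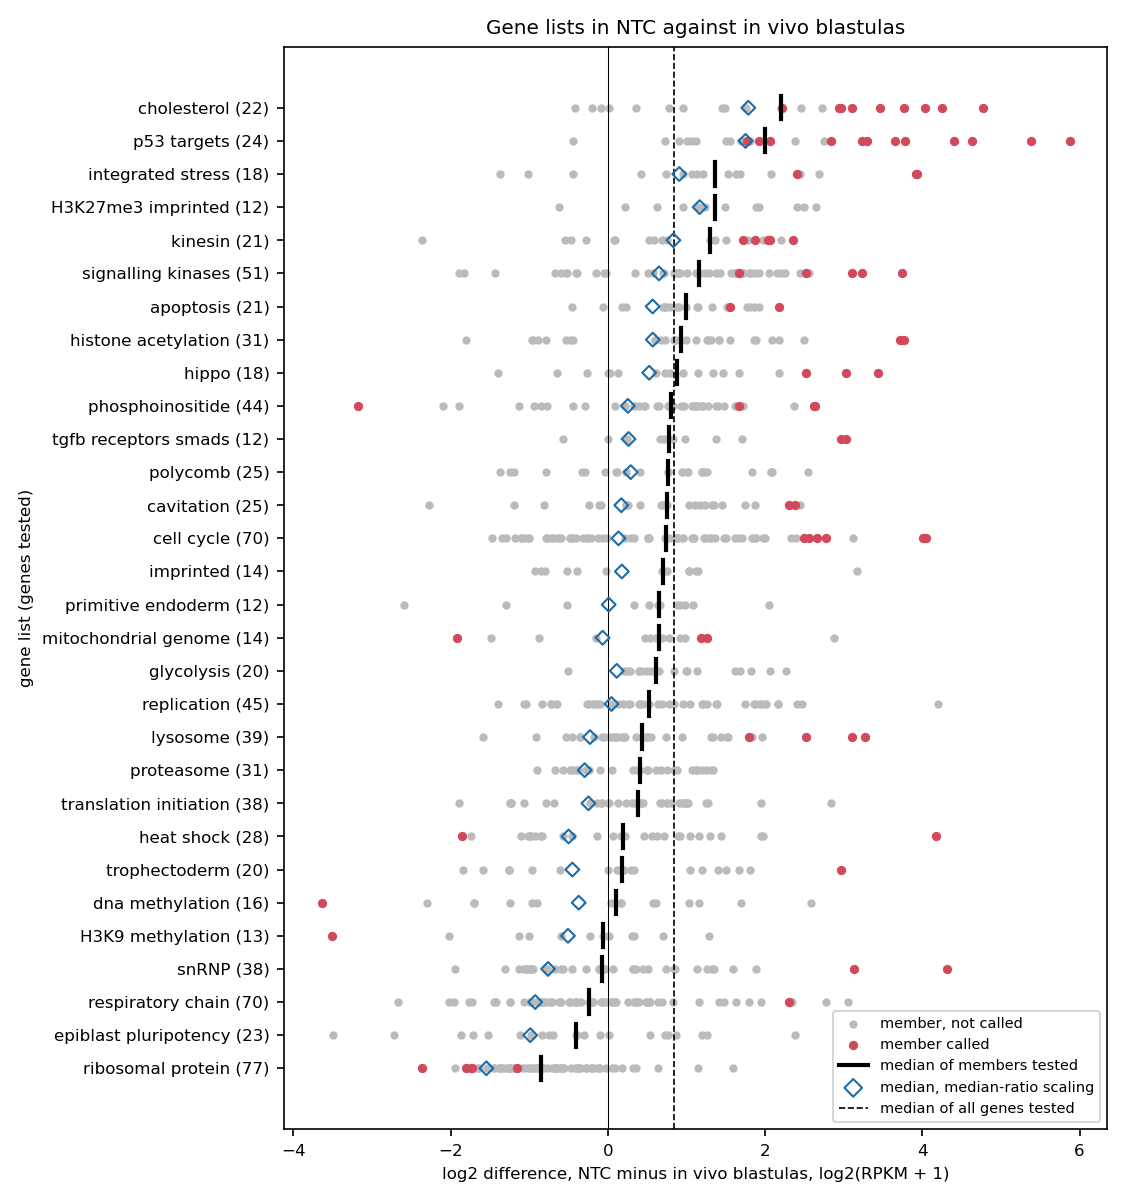
Difference between NTC and in vivo blastulas (log2(RPKM + 1) scale) for each tested member of the gene lists with at least 10 genes tested. Called members are red and the others grey, bars are list medians, diamonds are the medians after median-ratio scaling, and the dashed line is the median of all 9288 genes tested. The cholesterol and p53 lists lie to the right of the all-gene median of 0.85 and the ribosomal protein list to its left.

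Among the lists, that of p53 targets had the highest share of calls. Of the 24 tested members of a list of p53 and its targets, 12 (50.000%) were called higher in NTC blastulas and 0 lower, where 8.81% of all genes were called higher. Members near 0 in vivo passed the filter through the NTC libraries. With an average of 0.5 RPKM required in each group, 12 members were tested. Of these only Phlda3 and Ccng1 were called, both higher, where 0.209% of all genes were. The list was chosen with earlier results of these data known. All 3 NTC libraries lay above all 3 in vivo libraries in 17 members, where 30.6% of all genes did, and 16 had an unadjusted p under 0.05, as 2684 of all 9288 genes did. Without NTC blastula replicate 2, 14 did and the median was 2.19.

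The called members cover the arms of the response. Cdkn1a, the cyclin-dependent kinase inhibitor p21 that arrests the cell cycle, was at 1.23, 2.16 and 0 RPKM in the in vivo and 14.8, 23.6 and 35.4 RPKM in the NTC blastulas, with no overlap (3.66 ± 0.71, adjusted p = 0.0316). Btg2, an antiproliferative factor, was at 0, 0.0852 and 0.0317 RPKM in the in vivo and 16.2, 34.1 and 27.5 RPKM in the NTC blastulas (4.64 ± 0.59, adjusted p = 0.025). Mdm2, the ubiquitin ligase that degrades p53 and closes the feedback loop, was at 1.31, 0.853 and 0.223 RPKM in the in vivo and 15.2, 10.3 and 26.5 RPKM in the NTC blastulas (3.30 ± 0.65, adjusted p = 0.032). All 3 were therefore several-fold above the highest in vivo embryo in every NTC embryo. Among the death genes, Pmaip1 (Noxa) was at 0, 0.353 and 0.362 RPKM in the in vivo and 11.6, 37.7 and 34.8 RPKM in the NTC blastulas (4.41 ± 0.68, adjusted p = 0.025). Bbc3 (Puma) was at 0, 0.0582 and 0 RPKM in the in vivo and 2.38, 2.800 and 5.07 RPKM in the NTC blastulas (2.07 ± 0.45, adjusted p = 0.0377). The death receptor gene Eda2r, which is X-linked, was at 0.0108, 0.0595 and 0 RPKM in the in vivo and 14.8, 13.9 and 10.7 RPKM in the NTC blastulas (3.78 ± 0.53, adjusted p = 0.025). In vivo none of these death genes reached 0.5 RPKM in any embryo. The p53 cofactor Trp53inp1, the kinase Plk2, the RNA-binding protein Zmat3 and the translesion polymerase Polk rose by 3.24, 2.84, 1.92 and 1.77.

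Trp53 itself, which encodes p53, was not called. It was at 0.126, 4.02 and 0.409 RPKM in vivo and 6.12, 5.17 and 3.15 RPKM in NTC blastulas (adjusted p = 0.219), and 1 in vivo embryo was within the NTC range. Bax, a mitochondrial death effector, was at 20.4, 13.7 and 32.3 RPKM in vivo and 36.1, 58.2 and 48.6 RPKM in NTC blastulas (adjusted p = 0.249). Among further members that did not pass, Sesn2 was at 0.0366, 0.168 and 6.89 RPKM in the in vivo and 12.4, 20.8 and 8.99 RPKM in the NTC blastulas (adjusted p = 0.0973). Gadd45a was at 0, 0 and 0.0987 RPKM in the in vivo and 0.902, 1.102 and 5.99 RPKM in the NTC blastulas (adjusted p = 0.122). In Bax, Sesn2 and Gadd45a all NTC libraries lay above all in vivo libraries.

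**Figure D3:**
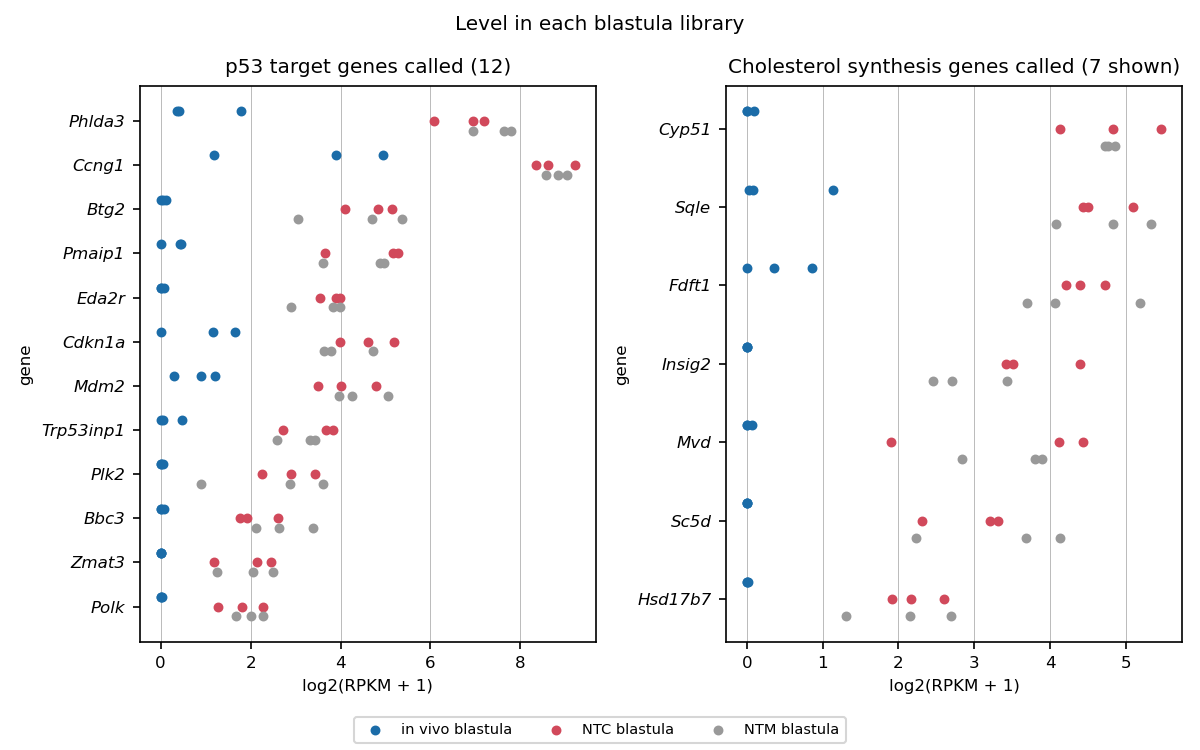
Level of the 12 called p53 target genes (left) and 7 of the 9 called cholesterol synthesis genes (right) in each blastula library on a log2(RPKM + 1) axis, 1 point per embryo, coloured by in vivo, NTC and NTM group. The in vivo points sit near 0 for most genes and the NTC points lie above all of them.

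Promoter sequences of p53 list members are shown because their shared regulation is defined by a DNA site. In the 250 bases before the RefSeq start (GRCm38.p6; both strands searched), the p53 half-site consensus occurred in 9 of 18 list members with a RefSeq promoter (50%), in 8.2% of all genes with one and in 6.95% of the genes called higher. A match is a description of letters and not a bound site. Capitals mark the half-site matches, which lay 73 and 51 bases before an upstream start of Cdkn1a, 186 before that of Mdm2 and 185 before that of Ccng1. The window of the other Cdkn1a start (chr17:29093519-29093768) held 0 matches. The called members Phlda3, Bbc3, Btg2, Plk2 and Eda2r also held 0 in every window.
Cdkn1a (chr17:29090729-29090978, plus strand): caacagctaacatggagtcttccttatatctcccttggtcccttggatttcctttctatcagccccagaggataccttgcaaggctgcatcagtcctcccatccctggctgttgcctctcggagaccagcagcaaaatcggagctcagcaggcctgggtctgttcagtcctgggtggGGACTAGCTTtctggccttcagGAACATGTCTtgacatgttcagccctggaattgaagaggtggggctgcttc
Mdm2 (chr10:117710759-117711008, minus strand): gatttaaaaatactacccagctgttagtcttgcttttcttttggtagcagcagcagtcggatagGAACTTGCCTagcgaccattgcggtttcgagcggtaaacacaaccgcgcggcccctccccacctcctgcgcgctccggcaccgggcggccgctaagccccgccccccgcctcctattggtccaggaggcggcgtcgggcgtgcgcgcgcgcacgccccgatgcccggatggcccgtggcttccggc
Ccng1 (chr11:40755287-40755536, minus strand): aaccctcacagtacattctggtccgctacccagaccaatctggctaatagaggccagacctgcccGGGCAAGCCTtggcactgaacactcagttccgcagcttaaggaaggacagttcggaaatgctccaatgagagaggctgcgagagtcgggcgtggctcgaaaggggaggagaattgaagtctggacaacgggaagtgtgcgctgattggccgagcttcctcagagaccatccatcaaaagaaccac

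Part of the cholesterol synthesis genes rose. Of 22 tested members, 9 (40.9%) were called higher, against 8.81% of all genes, 0 were called lower and 13 were not called. Members at or near 0 in vivo passed the filter through the NTC libraries. With an average of 0.5 RPKM required in each group, 11 members were tested, and no member was among the 30 genes called. In 12 members all NTC libraries lay above all in vivo libraries, where 30.6% of all genes did. Mvd, which makes the isoprene unit, was at 0, 0 and 0.0494 RPKM in the in vivo and 20.6, 16.3 and 2.72 RPKM in the NTC blastulas (3.46 ± 0.78, adjusted p = 0.0394). Its lowest NTC embryo exceeded its highest in vivo embryo. Fdft1, squalene synthase, was at 0, 0.286 and 0.822 RPKM in the in vivo and 20.1, 25.4 and 17.5 RPKM in the NTC blastulas (4.03 ± 0.59, adjusted p = 0.025). Sqle, squalene epoxidase, was at 1.19, 0.0211 and 0.0628 RPKM in the in vivo and 21.6, 33.02 and 20.6 RPKM in the NTC blastulas (4.26 ± 0.63, adjusted p = 0.025). Cyp51, the lanosterol demethylase, had the largest rise of the pathway, from 0.0721, 0 and 0 RPKM in vivo to 43.1, 27.3 and 16.5 RPKM (4.77 ± 0.62, adjusted p = 0.025). Of the late enzymes, Hsd17b7 was at 0.0125, 0 and 0 RPKM in the in vivo and 3.47, 5.06 and 2.78 RPKM in the NTC blastulas (2.22 ± 0.44). Sc5d was listed at 0 in every in vivo embryo and at 3.97, 8.89 and 8.200 RPKM in NTC blastulas (adjusted p = 0.0273). Likewise Insig2, which retains SREBP at the endoplasmic reticulum, was listed at 0 in vivo and at 10.4, 9.67 and 20.01 RPKM in NTC blastulas (adjusted p = 0.025).

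The regulators Srebf1, Srebf2 and Insig1 were not called. Srebf2, which encodes the SREBP of cholesterol synthesis, was at 0.0128, 96.4 and 8.15 RPKM in vivo and 16.3, 15.2 and 5.89 RPKM in NTC blastulas (adjusted p = 0.899). Srebf1 was at 0.701, 0.0415 and 21.5 RPKM in vivo and 2.06, 3.27 and 0.99 RPKM in NTC blastulas (adjusted p = 0.924). Insig1 was at 11.3, 12.5 and 31.3 RPKM in vivo and 9.598, 22.1 and 8.23 RPKM in NTC blastulas (adjusted p = 0.732). The groups overlapped in each of these 3 genes. Hmgcs1, a synthase of the early pathway, was at 0.945, 0 and 2.86 RPKM in the in vivo and 21.6, 17.9 and 4.12 RPKM in the NTC blastulas and missed the threshold (adjusted p = 0.081). Without NTC blastula replicate 2, 11 members had an unadjusted p under 0.05, against 12 with it, and median-ratio scaling called 4 of the list higher. Of these genes, CCs expressed Cyp51 at 37.01, 51.6 and 74.04 RPKM and Sqle at 48.6, 13.5 and 74.1 RPKM.

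The promoters of 3 called genes are printed for the CCAAT box, the letters bound by NF-Y, which acts beside SREBP at many sterol genes. CCAAT, or ATTGG on the other strand, occurred in the 250 bases before the start in 18 of 19 list members with a RefSeq promoter (94.7%), in 12 of 18 members of the p53 list (66.7%), in 37.5% of all 27025 genes with one and in 42.2% of the genes called higher. Capitals mark it in the sequences, 29 bases before the start in Cyp51, 24 in Sc5d, and 165, 73 and 12 in Hsd17b7.
Cyp51 (chr5:4104698-4104947, minus strand): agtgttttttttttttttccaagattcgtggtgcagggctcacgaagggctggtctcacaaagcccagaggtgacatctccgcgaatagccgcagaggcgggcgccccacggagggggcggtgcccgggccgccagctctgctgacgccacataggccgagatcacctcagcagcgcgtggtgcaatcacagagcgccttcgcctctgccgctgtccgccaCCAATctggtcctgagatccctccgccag
Sc5d (chr9:42264301-42264550, minus strand): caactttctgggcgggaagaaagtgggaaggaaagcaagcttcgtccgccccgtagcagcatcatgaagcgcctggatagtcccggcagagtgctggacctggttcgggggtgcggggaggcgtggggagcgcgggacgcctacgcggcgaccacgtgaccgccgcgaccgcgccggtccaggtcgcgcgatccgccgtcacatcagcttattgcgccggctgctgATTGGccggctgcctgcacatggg
Hsd17b7 (chr1:169969206-169969455, minus strand): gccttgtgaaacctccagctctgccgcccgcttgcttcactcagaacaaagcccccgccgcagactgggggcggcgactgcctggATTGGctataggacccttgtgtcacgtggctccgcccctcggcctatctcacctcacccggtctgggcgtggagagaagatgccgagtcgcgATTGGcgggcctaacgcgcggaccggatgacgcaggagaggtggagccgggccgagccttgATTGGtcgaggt

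Stress genes were called in both directions. In the integrated stress response, through which cells restrain translation and make amino acids, 3 of 18 tested members (16.7%, against 8.81% of all genes) were called higher and 0 lower. The median was 1.37, and it was 0.85 over the 10 members that averaged 0.5 RPKM in each group. Asns, asparagine synthetase, was at 0, 0.171 and 0.382 RPKM in the in vivo and 25.005, 28.6 and 6.34 RPKM in the NTC blastulas (3.92 ± 0.72, adjusted p = 0.0291). Mthfd2, of mitochondrial folate metabolism, was at 0.0183, 0.0335 and 0 RPKM in the in vivo and 9.08, 20.8 and 16.1 RPKM in the NTC blastulas (3.93 ± 0.58, adjusted p = 0.025). The regulator Trib3 was listed at 0 in vivo and at 5.67, 5.14 and 2.63 RPKM in NTC blastulas (adjusted p = 0.0322). In heat shock and chaperone genes, whose median of 0.19 became -0.50 with median-ratio scaling, 1 of 28 was called higher and 1 lower. That is 3.57% each, against 8.81% and 0.657% of all genes. Hspb1, a small heat shock protein, was at 2.902, 0.68 and 0.338 RPKM in the in vivo and 28.6, 19.9 and 81.3 RPKM in the NTC blastulas (4.17 ± 0.79, adjusted p = 0.0296). Hspa4, an exchange factor of Hsp70, was at 193, 279.8 and 297 RPKM in the in vivo and 93.2, 64.4 and 54.7 RPKM in the NTC blastulas and fell (-1.85 ± 0.43, adjusted p = 0.0419). Among apoptosis genes outside the p53 list, 2 of 21 (9.52%, near the 8.81% of all genes) were called higher. Casp9, the initiator caspase of the mitochondrial pathway, was at 0.0368, 0.112 and 0.134 RPKM in the in vivo and 6.02, 3.801 and 2.62 RPKM in the NTC blastulas (2.18 ± 0.48). Bnip3, of mitochondrial clearance, was at 253, 280.3 and 206 RPKM in the in vivo and 656, 619 and 927 RPKM in the NTC blastulas (1.56 ± 0.30).

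Signalling genes were called at about the rate of all genes. Of 51 signalling kinases, 5 (9.800%, near the 8.81% of all genes) were called higher and 0 lower, and the list median was 1.16 (0.65 with median-ratio scaling). They were Map3k3, Jak1, Pdpk1, which activates Akt, and both catalytic subunits of the energy sensor AMPK, Prkaa1 and Prkaa2. Map3k3, upstream of the Erk5 cascade, was at 3.66, 0.668 and 0.0433 RPKM in the in vivo and 20.2, 33.6 and 25.3 RPKM in the NTC blastulas (3.74 ± 0.75). Jak1, of cytokine signalling, was at 0.899, 0.0808 and 0.0482 RPKM in the in vivo and 15.9, 10.4 and 6.095 RPKM in the NTC blastulas (3.10 ± 0.62). Prkaa1 was at 2.37, 0.0251 and 0.43 RPKM in the in vivo and 19.5, 15.9 and 10.7 RPKM in the NTC blastulas. The groups overlapped in none of these 3. Prkaa2 was at 0, 0 and 0.0109 RPKM in the in vivo and 2.28, 2.18 and 2.14 RPKM in the NTC blastulas, again without overlap. Mtor was at 0.0126, 0.0694 and 0.267 RPKM in the in vivo and 3.72, 1.26 and 2.71 RPKM in the NTC blastulas and was not called (adjusted p = 0.0643). Of the TGF-beta receptors and Smads, 2 of 12 were called higher (16.7%, against 8.81% of all genes), and the median of 0.77 was below the 0.85 of all genes. Tgfbr2, the ligand-binding receptor, was listed at 0 in vivo and at 12.1, 4.27 and 6.81 RPKM in NTC blastulas (adjusted p = 0.0285). Smad2, its transducer, was at 0.126, 0.658 and 0.0245 RPKM in the in vivo and 12.5, 9.09 and 5.68 RPKM in the NTC blastulas (2.97 ± 0.58, adjusted p = 0.0315). Tgfbr1, which the study names, was at 0, 0 and 0.0267 RPKM in the in vivo and 0.475, 0.466 and 0.869 RPKM in the NTC blastulas, below the limit for testing.

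In phosphoinositide metabolism 3 of 44 genes were called higher (6.82%, below the 8.81% of all genes) and 1 lower, with a median of 0.80. Dgka, a diacylglycerol kinase, was listed at 0 in vivo and at 7.39, 4.43 and 4.15 RPKM in NTC blastulas (adjusted p = 0.0284). Pip4k2c rose by 2.63 ± 0.52 and Mtmr3 by 1.67 ± 0.38. Pikfyve, which makes the lipid that endosomes need for maturation, was at 8.28, 18.4 and 29.5 RPKM in the in vivo and 0.503, 1.08 and 1.37 RPKM in the NTC blastulas and fell (-3.18 ± 0.68, adjusted p = 0.0369). In the Hippo pathway, which reads cell position and sets trophectoderm fate, 3 of 18 genes (16.7%, against 8.81% of all genes) were called higher, and the median of 0.88 was near that of all genes. The kinase Stk4 was at 0.0435, 0.0399 and 0.0149 RPKM in the in vivo and 11.99, 10.6 and 3.01 RPKM in the NTC blastulas (3.03 ± 0.63). Its partner Mob1a was at 0.239, 0.195 and 0.381 RPKM in the in vivo and 9.62, 13.8 and 15.6 RPKM in the NTC blastulas (3.44 ± 0.55). The Yap-binding Amotl2 was at 0.111, 0 and 1.32 RPKM in the in vivo and 7.09, 4.22 and 10.5 RPKM in the NTC blastulas (2.52 ± 0.62). Yap1, the coactivator they restrain, was at 1.89, 1.22 and 2.36 RPKM in the in vivo and 17.3, 10.8 and 8.32 RPKM in the NTC blastulas and not called (adjusted p = 0.0615).

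Of the kinesin motors, 5 of 21 (23.8%, against 8.81% of all genes) were called higher and 0 lower, with a median of 1.30 (0.83 with median-ratio scaling). Over the 12 that averaged 0.5 RPKM in each group the median was 0.31, below the 0.48 of all genes in that fit. Of these, 3 act in mitosis, Kif18a at the plus ends of spindle microtubules (2.04 ± 0.48), Kif20a in cytokinesis (1.72 ± 0.39) and Kif2c as a depolymerase (2.07 ± 0.49). The other two belong to kinesin-2, the motor of cargo transport and cilia. Kif3a was at 0.0178, 0 and 0 RPKM in the in vivo and 1.67, 5.51 and 6.91 RPKM in the NTC blastulas (2.36 ± 0.56, adjusted p = 0.043). Its associated protein Kifap3 was listed at 0 in vivo and at 1.72, 2.59 and 4.001 RPKM in NTC blastulas (adjusted p = 0.0406). Kif3c was listed at 0 in vivo and at 1.902, 0.537 and 4.04 RPKM (adjusted p = 0.0983), and Kif3b, below the limit for testing, was at 0, 0 and 0 RPKM in the in vivo and 0.0538, 0.289 and 1.41 RPKM in the NTC blastulas. Without NTC blastula replicate 2, 11 kinesins had an unadjusted p under 0.05, against 10 with it.

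Cell cycle genes held 6 higher calls among 70 (8.57%, near the share of all genes) and 0 lower. Wee1, the kinase that delays entry into mitosis, was at 0.0656, 0.0602 and 0 RPKM in the in vivo and 12.8, 20.4 and 15.1 RPKM in the NTC blastulas (4.01 ± 0.55, adjusted p = 0.025). E2f6, a repressor of the E2f family, was at 0.105, 0.338 and 0.036 RPKM in the in vivo and 8.85, 14.8 and 43.1 RPKM in the NTC blastulas (4.04 ± 0.72). Cdkn2c, an inhibitor of the G1 kinases, was at 0.237, 0.392 and 0 RPKM in the in vivo and 8.68, 7.198 and 4.56 RPKM in the NTC blastulas (2.67 ± 0.53). These 3 restrain the cycle, while Anapc5 and Anapc11 of the anaphase-promoting complex (2.49 ± 0.55 and 2.77 ± 0.58) and the kinetochore gene Spc25 (2.56 ± 0.56) serve chromosome separation. Of 45 replication genes 0 were called, and 5 had an unadjusted p under 0.05. Over all genes 9.46% were called, and 2684 of 9288 had such a p.

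Ribosomal protein genes went the other way. Of 77 tested, 69 had a negative difference and 29 had all 3 NTC libraries below all 3 in vivo libraries, where 4.54% of all genes did. Of the list, 5 were called lower (6.49%, against 0.657% of all genes) and 0 higher, and median-ratio scaling called 17 lower. Rpl32 was at 911, 1052 and 888 RPKM in the in vivo and 277, 415 and 198 RPKM in the NTC blastulas (-1.74 ± 0.33, adjusted p = 0.0295). Rps12 was at 1956, 2521 and 3054 RPKM in the in vivo and 896, 1554 and 966 RPKM in the NTC blastulas (-1.16 ± 0.27, adjusted p = 0.0409). In both genes every NTC embryo was below every in vivo embryo. Rps27 had the largest fall of the 5, from 177, 290.2 and 397 RPKM in vivo to 38.9, 81.2 and 45.1 RPKM (-2.36 ± 0.51, adjusted p = 0.0377). Rps25 and Rps14 differed by -1.81 and -1.73 (log2, NTC minus in vivo). Ribosomal protein genes have many processed copies in the genome, and reads may have been split among them. Without NTC blastula replicate 2, 29 members had an unadjusted p under 0.05, against 24 with it. Other lists of the basic machinery stayed near or below the all-gene median: nuclear genes of the respiratory chain had a median of -0.23, snRNP genes -0.08, the proteasome 0.41 and translation initiation 0.39, the last 2 turning to -0.29 and -0.25 with median-ratio scaling. In these 4 lists 3 genes were called, all higher, where 8.81% of all genes were called higher. Ndufs7 of complex I was at 0.0371, 0.068 and 0.101 RPKM in the in vivo and 4.94, 4.71 and 3.305 RPKM in the NTC blastulas. Sf3b4 and Sf3b3 belong to the U2 snRNP. Sf3b4 was at 3.47, 0.324 and 0.685 RPKM in the in vivo and 62.1, 48.8 and 24.2 RPKM in the NTC blastulas, and Sf3b3 was at 0.533, 2.45 and 1.01 RPKM in the in vivo and 18.4, 16.7 and 19.8 RPKM in the NTC blastulas.

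Transcripts of the mitochondrial genome were called in both directions. Of 14 tested, mt-Nd2 and mt-Nd4, subunits of complex I, were called higher (14.3%, against 8.81% of all genes). The small ribosomal RNA mt-Rnr1 was called lower (7.14%, against 0.657%). mt-Nd4 was at 4347, 4159.6 and 5113 RPKM in the in vivo and 9899, 10155 and 12640.4 RPKM in the NTC blastulas (1.26 ± 0.12, adjusted p = 0.0228). mt-Nd2 was at 14219, 12172 and 15056 RPKM in the in vivo and 25010.3, 35147 and 35275 RPKM in the NTC blastulas (1.19 ± 0.14, adjusted p = 0.025). mt-Rnr1 was at 6069, 1887 and 2986 RPKM in the in vivo and 748, 804 and 1065 RPKM in the NTC blastulas (-1.91 ± 0.40, adjusted p = 0.0356). The groups did not overlap in any of the 3. With median-ratio scaling mt-Nd4 and mt-Nd2 differed by 0.55 and 0.48 and were not called (adjusted p = 0.128 and 0.165), and the list median turned from 0.65 to -0.07 with median-ratio scaling.

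Each lineage list held expressed members in both groups, although single members such as Krt7 were listed at 0 in all 6 libraries. Few members were called, where 9.46% of all genes were called and 2684 of 9288 had an unadjusted p under 0.05. The epiblast list had a median of -0.40 against 0.85 for all genes (-0.99 with median-ratio scaling and -0.81 without NTC blastula replicate 2). Of its 23 tested members 15 were negative, and in 6 all NTC libraries lay below all in vivo libraries, where 4.54% of all genes did. Trophectoderm markers summed to 711 to 1958 RPKM in the in vivo and 284 to 1586 RPKM in the NTC blastulas, epiblast and pluripotency markers to 769 to 1460 and 640 to 797 RPKM, and primitive endoderm markers to 77.7 to 267 and 152 to 191 RPKM. CCs held 719 to 1321, 35.4 to 74.7 and 433 to 757 RPKM of these lists, so the first and the last also count genes of other cells. In morulas trophectoderm markers summed to 81.9 to 231 RPKM in vivo and 116 to 265 RPKM in NTC embryos. NTC blastula replicate 3, at 284 RPKM, was close to the highest NTC morula. Epiblast markers summed to 714 to 1042 RPKM in in vivo and 587 to 999 RPKM in NTC morulas, overlapping the blastulas. The sums therefore do not check the stage of every library. Of 20 trophectoderm genes 1 was called, the galectin Lgals3 at 0.411, 0.377 and 0.844 RPKM in the in vivo and 14.2, 15.1 and 6.01 RPKM in the NTC blastulas (2.97 ± 0.61, adjusted p = 0.0351), and of 23 epiblast and 12 primitive endoderm genes 0 (unadjusted p under 0.05 in 3 and 2). The trophectoderm factor Cdx2 was at 25.3, 75.8 and 10.2 RPKM in the in vivo and 60.4, 51.2 and 8.83 RPKM in the NTC blastulas (adjusted p = 0.935). Gata3, of the same lineage, was at 64.7, 23.999 and 49.6 RPKM in the in vivo and 61.7, 53.8 and 29.9 RPKM in the NTC blastulas (adjusted p = 0.92). Both overlapped between the groups. Nanog, of the epiblast, was at 46.7, 113 and 50.2 RPKM in the in vivo and 103, 142 and 114 RPKM in the NTC blastulas (adjusted p = 0.313). Pou5f1 (Oct4) was at 2.86, 0.104 and 3.33 RPKM in the in vivo and 5.49, 5.82 and 4.05 RPKM in the NTC blastulas (adjusted p = 0.308). Tfcp2l1, which the study names, was at 8.16, 6.36 and 4.25 RPKM in the in vivo and 12.7, 11.8 and 5.23 RPKM in the NTC blastulas (adjusted p = 0.609).

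Some lineage genes separated the groups without passing the test. Sox2, the epiblast factor, was at 19.2, 4.89 and 15.2 RPKM in the in vivo and 0.515, 1.48 and 0.809 RPKM in the NTC blastulas, every NTC embryo below every in vivo embryo (difference -2.72 ± 0.69, adjusted p = 0.0526). Tdgf1, a coreceptor of Nodal, was at 44.05, 16.04 and 8.502 RPKM in the in vivo and 4.04, 0.02 and 0 RPKM in the NTC blastulas (difference -3.49 ± 0.93, adjusted p = 0.0565). Gata4, of the primitive endoderm, was at 5.21 and 34.1 RPKM in 2 in vivo embryos and was listed at 0 in the other and in all NTC embryos (adjusted p = 0.195). Gata6, which comes before it, was at 39.7, 2.49 and 1.39 RPKM in the in vivo and 20.9, 43.4 and 23.5 RPKM in the NTC blastulas (adjusted p = 0.269). Of 25 genes of compaction and cavitation 2 were called higher (8%, near the 8.81% of all genes), with a median of 0.76. The polarity gene Pard3 was at 0.544, 0.201 and 0.114 RPKM in the in vivo and 4.89, 5.900 and 5.06 RPKM in the NTC blastulas (2.30 ± 0.49). Desmoplakin, Dsp, was at 0.0198, 0.352 and 0.977 RPKM in the in vivo and 5.84, 6.81 and 6.12 RPKM in the NTC blastulas (2.37 ± 0.54). The water channel gene Aqp3 was at 56.4, 10.2 and 46.8 RPKM in the in vivo and 6.29, 4.48 and 5.78 RPKM in the NTC blastulas (adjusted p = 0.105). At 3 embryos a group, these values do not show that the uncalled genes were alike.

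**Figure D4:**
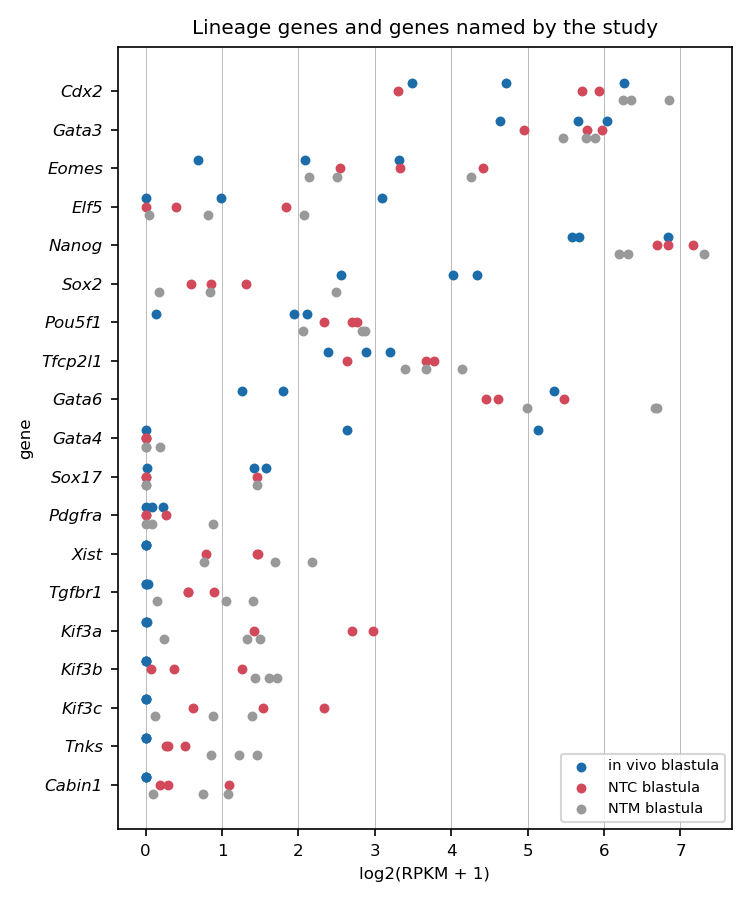
Level of lineage genes, Xist and genes that the study names for blastulas in each blastula library on a log2(RPKM + 1) axis, 1 point per embryo. Cdx2, Gata3 and Nanog overlap between in vivo and NTC embryos, and the NTC points of Sox2 lie below the in vivo points.

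Of the chromatin lists, DNA methylation held 1 lower call among 16 tested and H3K9 methylation 1 lower among 13. Histone acetylation held 2 higher calls among 31. Over all genes 8.81% were called higher and 0.657% lower, and 2684 of 9288 had an unadjusted p under 0.05. Lists of this size are too small to tell such counts from those shares. Tet2, which oxidises methylated cytosine, was at 36.8, 69.2 and 59.4 RPKM in the in vivo and 3.01, 4.29 and 2.896 RPKM in the NTC blastulas and fell (-3.64 ± 0.60, adjusted p = 0.0267). Cbx3, the heterochromatin protein HP1 gamma that reads methylated H3K9, was at 21.5, 42.3 and 76.8 RPKM in the in vivo and 1.74, 4.72 and 2.303 RPKM in the NTC blastulas and fell (-3.50 ± 0.72, adjusted p = 0.0344). In both, every NTC embryo was below every in vivo embryo. The same held for Tet1 and Uhrf1, which were not called. Tet1 was at 9.33, 22.2 and 20.7 RPKM in the in vivo and 4.97, 3.41 and 4.72 RPKM in the NTC blastulas (adjusted p = 0.126). Uhrf1, which guides maintenance methylation, was at 15.1, 28.6 and 28.1 RPKM in the in vivo and 6.35, 4.42 and 1.95 RPKM in the NTC blastulas (adjusted p = 0.0687). Sirt2, a deacetylase, rose from 0, 0 and 0.0244 to 12.3, 11.5 and 14.5 RPKM (3.77 ± 0.52, adjusted p = 0.025). Msl1, of the MSL acetyltransferase complex, rose from 0.0586, 0.0215 and 0.192 to 13.3, 18.9 and 9.19 RPKM (3.71 ± 0.57). Of 25 polycomb genes 0 were called and 5 had an unadjusted p under 0.05.

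Among imprinted genes 0 of 14 tested were called (2 with an unadjusted p under 0.05), and Snrpn was at 9.29, 0 and 8.11 RPKM in the in vivo and 46.1, 41.9 and 33.2 RPKM in the NTC blastulas (adjusted p = 0.0806). Of 12 genes imprinted through maternal H3K27me3, 0 were called and 4 had an unadjusted p under 0.05, with a median of 1.36 against 0.85 for all genes. Over all genes 9.46% were called and 2684 of 9288 had such a p, and both lists are too small to be told from that. Xist, the RNA that silences an X chromosome, was at 0.00355, 0 and 0 RPKM in the in vivo and 1.74, 1.78 and 0.732 RPKM in the NTC blastulas (adjusted p = 0.0713). Rhox5 was the 1 called gene of 7 tested in the Rhox and Xlr clusters (14.3%, against 8.81% of all genes called higher). Genes of chromosome X had a median difference of 0.68, the lowest of the chromosomes, against 1.09 on chromosome 12, the highest. In vivo replicates 2 and 3 expressed the Y-linked Ddx3y, whereas the NTC nuclei were female. For Xist and other X-linked genes, sex and nuclear transfer therefore cannot be told apart.

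Markers of other cells had higher sums in NTC than in in vivo blastulas for the cumulus, blood and reproductive tract lists. Of 24 cumulus and granulosa markers, 15 were listed at 0 in all 6 libraries, including the defining Fshr, Foxl2, Inha, Amh and Cyp19a1; their sum was 0 to 0.0318 RPKM in vivo, 5.46 to 11.2 RPKM in NTC blastulas and 871 to 2291 RPKM in CCs. Amhr2, the receptor of anti-Müllerian hormone, was the 1 called member of 3 tested and was at 0.0318, 0 and 0 RPKM in the in vivo and 3.44, 3.67 and 3.76 RPKM in the NTC blastulas (adjusted p = 0.0296). Fibroblast markers summed to 0 in vivo and to 0 to 3.08 RPKM in NTC blastulas, with 12 of 16 at 0 in all 6. Blood markers summed to 0 in vivo and to 0.102 to 2.04 RPKM, and reproductive tract markers to 0.0504 to 4.73 and 7.89 to 63.0 RPKM, most of it Wfdc2 at 0, 3.59 and 0.0764 RPKM in the in vivo and 46.8, 62.6 and 6.87 RPKM in the NTC blastulas (adjusted p = 0.0513). In NTM blastulas reproductive tract markers summed to 61.5, 26.5 and 39.95 RPKM. The part of such cells in the results was not tested. The Y-linked Ddx3y was at 0.0122, 28.97 and 35.8 RPKM in the in vivo and 0.0146, 0 and 0 RPKM in the NTC blastulas, so 2 of the 3 in vivo embryos expressed it, and the NTC embryos, made with female nuclei, held 0.0146 RPKM at most.

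The genes called at the blastula stage were followed through the earlier stages, whose libraries took no part in the calls. The blastula values did, so they are given as a description. In vivo blastulas also listed the fewest genes of any group in the series, and whether that lowers these values was not tested. The 818 higher genes had a median of the group mean log2(RPKM + 1) of 1.72 in in vivo morulas and 0.09 in in vivo blastulas, against 2.47 and 2.94 in NTC embryos, and 74.4% of them had a mean of at least 1 RPKM in in vivo morulas but 12% in in vivo blastulas. At the 1-cell, 2-cell, 4-cell and 8-cell stages their in vivo medians were 1.87, 1.80, 2.46 and 1.35. The 61 lower genes had in vivo medians of 4.19 in morulas and 6.82 in blastulas and NTC medians of 3.40 and 3.58. Between NTC and in vivo morulas 574 of the 762 higher genes tested there had a positive difference (median 0.59, against 0.27 for the genes tested in both), 2 were called, and over all genes 3 (0.0321%) were called.

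**Figure D5:**
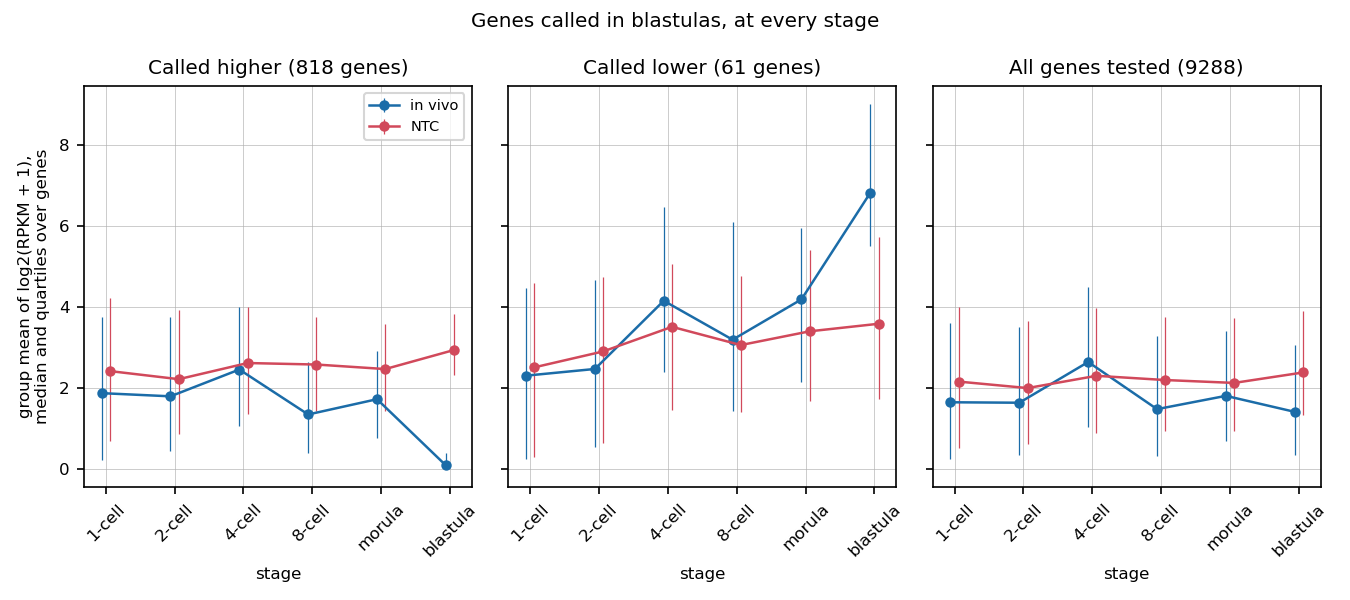
Median and quartiles over genes of the group mean of log2(RPKM + 1) at each stage in in vivo and NTC embryos, for the 818 genes called higher, the 61 called lower and all 9288 tested. The 2 lines separate most at the blastula, where the in vivo line falls to 0.09 for the higher genes and rises to 6.82 for the lower genes.

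A direct test of the change from morula to blastula, NTC against in vivo, called 23 of 9747 genes (0.236%), 20 more positive (0.205%) and 3 more negative (0.0308%) in NTC embryos, and it shares its blastula libraries with the calls above. Cab39l, an activator of the kinase Lkb1, was at 27.5, 23.6 and 36.8 RPKM in in vivo morulas and 0.0419, 0.115 and 0.0287 RPKM in in vivo blastulas. Its NTC values were 16.2, 11.9 and 12.7 RPKM in morulas and 38.9, 27.02 and 15.9 RPKM in blastulas, so the transcript was near 0 in in vivo blastulas and not in the other groups (difference of the changes 5.69 ± 0.73, limma, adjusted p = 0.0137). Pink1, a kinase of mitochondrial quality control, went from 26.5, 18.4 and 22.2 to 0.143, 0.0874 and 0.0326 RPKM in vivo and from 16.4, 10.8 and 13.9 to 23.97, 23.3 and 12.5 RPKM in NTC embryos (4.89 ± 0.71, adjusted p = 0.0137). In the opposite sense, Ptp4a1 went from 819, 822 and 831 to 5149, 6181 and 4572 RPKM in vivo and from 411, 302 and 535 to 334, 304 and 437 RPKM in NTC embryos (-2.86 ± 0.41, adjusted p = 0.0137). Pdcd4 went from 0.0616, 0.32 and 0.658 to 31.3, 45.8 and 103 RPKM in vivo and from 0, 0.0249 and 0.104 to 0.533, 0.576 and 0.0383 RPKM in NTC embryos. It was high in in vivo blastulas and below 1 RPKM in NTC blastulas and in the morulas of both groups. The 23 calls went to 0 without NTC blastula replicate 2, NTC morula replicate 1 or NTC morula replicate 3, and to 256 without in vivo blastula replicate 1.

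Rhox5 was higher in NTC embryos already in morulas. Rhox5 was at 2.64, 0.0905 and 0 RPKM in in vivo and 121, 89.8 and 107 RPKM in NTC morulas (6.06 ± 0.58, adjusted p = 0.00551), so the groups were apart at both stages. Areg, a ligand of the EGF receptor that was also called in morulas, was listed at 0 in all in vivo morulas and blastulas and at 32.6, 10.1 and 18.4 and 2.68, 10.3 and 62.8 RPKM in NTC morulas and blastulas (blastula adjusted p = 0.058). The p53 list had a median difference of 1.38 in morulas, against 0.26 for all genes tested there, with Btg2 at 0.0574, 0.0249 and 0.107 and 7.47, 30.3 and 4.37 RPKM and Eda2r at 0.0713, 0.0116 and 2.53 and 24.6, 24.2 and 13.1 RPKM in in vivo and NTC morulas. Neither was called there (adjusted p = 0.092 and 0.0708).

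NTM blastulas were compared with the same in vivo libraries, so the values of the NT types are given side by side and no overlap is drawn from them. That comparison called 53 of 9380 genes higher (0.565%) and 17 lower (0.181%), and its p53, cholesterol and ribosomal protein medians were 2.57, 2.04 and -0.93. In NTM blastulas Rhox5 was at 70.2, 205 and 112 RPKM, Phlda3 at 122, 198 and 222 RPKM and Cyp51 at 25.3, 27.95 and 26.2 RPKM, each far above the in vivo blastulas. Ptp4a1 was at 192, 260.5 and 283 RPKM, Sdc4 at 256, 167 and 148 RPKM and Pdcd4 at 1.74, 0.202 and 0.889 RPKM. Hmgn5 was at 59.4, 0.0799 and 19.9 RPKM and Upp1 at 50.1, 0.0263 and 0.247 RPKM, so that for both of these the first NTM embryo was above every NTC embryo.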

How the data were processed

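Single embryos were lysed, and their RNA was amplified and sequenced. According to the methods, the authors trimmed reads, aligned them with TopHat and counted them per gene with HTSeq, whereas processing notes in the labels name build mm8 and Bowtie 0.12.2; the build is therefore uncertain. The authors deposited 1 table of RPKM values for 27238 Ensembl genes in 60 libraries, each library normalised on its own, with no coordinates. Low RPKM values were whole multiples of the value of 1 read, so read totals were recovered from them. The share of reads that map to several places and how they were counted is not given in the sources used here.

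log2(RPKM + 1) values were compared with limma 3.58.1 (lmFit, eBayes with trend) in R 4.3.3 over the 6 blastula libraries, without covariates, for genes that averaged 0.5 RPKM or more, and p-values were adjusted by Benjamini-Hochberg. Python 3.11.15, numpy 2.4.6, pandas 2.3.3 and scipy 1.17.1 served for exact permutation tests, lists and sequences. The limma script was tested on simulated data. The same design with a stage term tested the change from morula to blastula. Alternatives were another pseudocount, filter, scaling or depth, 1 fit over all groups, no variance trend or fold threshold, a replicate block, and each library left out.

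The comparison, the 39 gene lists (1221 symbols, 15 unmatched) and the named genes were chosen with earlier results of these data known. Named were the 12 called genes with the largest rise and the 12 with the largest fall, not overlapping, with a mean of at least 5 RPKM in the higher group and without predicted genes and pseudogenes; genes the study names for blastulas; lineage factors and Xist; in each list, the called members and up to 4 more with the lowest p; and up to 12 genes of the test across stages. Trp53, Bax, Srebf1, Srebf2, Insig1, Ftl1 and Fth1 were added after their values were seen. Values of some genes are not reported here. Intervals and floors cover counting error only. Symbols and chromosomes came from GENCODE and promoters from RefSeq (GRCm38.p6), and no coordinate was converted between builds.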

Additional observations from a re-analysis of the deposited data

Results flagged for a closer look

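The change from morula to blastula differed between NTC and in vivo embryos by a direct test of the difference of the changes for 23 genes (limma, adjusted p under 0.05 and a size of at least 1). In 11 of those with the lowest p the difference, NTC minus in vivo on the log2(RPKM + 1) scale, was 5.69 for Cab39l, 5.23 for the deacetylase Sirt2, 5.95 for Gyg, the primer of glycogen synthesis, 4.89 for Pink1, 5.64 for Cep83, 5.0 for Zfp930, 4.04 for Scaper and 4.56 for Mcrip1. It was -2.86 for Ptp4a1, -4.97 for Pdcd4 and -3.66 for Gm2a.

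Gyg was at 8.93, 13.9 and 8.68 RPKM in in vivo morulas and 0, 0 and 0.706 RPKM in in vivo blastulas, and at 0.0692, 0.19 and 0.0812 RPKM in NTC morulas and 4.297, 2.87 and 17.96 RPKM in NTC blastulas. Scaper was at 7.64, 6.14 and 11.2 and 0.0123, 0.272 and 0 RPKM in vivo and at 0.147, 0.0494 and 0.302 and 1.498, 1.25 and 1.14 RPKM in NTC embryos. Neither was called between blastulas (adjusted p = 0.0626 and 0.0876). Groups of 3 libraries are too small to test 1 library against the others.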

How the results depend on the processing

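The calls between blastulas depended on the settings, and the cause was not tested. Against 879 calls (818 higher, 61 lower), a pseudocount of 0.1 gave 1574 (1492 higher), no filter on low values 78 (63 and 15), a mean of 0.5 RPKM required in each group 30 (13 and 17), median-ratio scaling 163 (87 higher), nuclear genes alone 1442 (1378 higher) and 1 fit over all 20 groups 2368 (2038 and 330). Leaving out 1 library gave 1 to 1085 calls, 0 to 1055 higher and 1 to 110 lower: 1 without NTC blastula replicate 2, and 541 and 561 without in vivo blastula replicates 2 and 3. The lower calls were 22 and 30 without NTC blastula replicates 1 and 3, 40 without in vivo replicate 2 and 110 without in vivo replicate 1. For the change from morula to blastula, 23 calls became, in the same order of settings, 161, 74, 2, 36, 195 and 309, and 0 to 256 with 1 library left out. The median difference of 0.85 became 1.73, 0.34, 0.48, 0.33 and 1.11 under the first 5 settings, and the 9 lists above it became 21 without a filter, 14 with 0.5 RPKM in each group and 14 with nuclear genes alone. Without limma's trend 839 genes were called, with thinned libraries 830 and with no fold threshold 882.

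With the replicate number as a replicate block, 12 genes were called (4 higher, 8 lower) and 10 for the change from morula to blastula. Deviations of same-numbered libraries correlated at -0.02, 0.02 and -0.01. With 3 libraries a group such correlations cannot show whether same-numbered libraries shared an experiment, and no label says so. No result turned its called direction. Among the named genes, 784 of the alternative values of called genes stayed past the threshold and 528 did not. Depth limits low genes: 3 reads on 2 kb are worth up to 0.175 RPKM.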

Other observations

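Ferritin and lysosomal genes are given as values. Ftl1, the light chain of the iron store ferritin, was at 1125, 439.8 and 610.5 RPKM in the in vivo and 2955, 3793 and 6007 RPKM in the NTC blastulas, all NTC embryos above all in vivo embryos (2.60 ± 0.39, limma, adjusted p = 0.025). A near copy of Ftl1 is present in the genome, and reads may have been split with it. Fth1, the heavy chain, was at 1928, 1875 and 1204 RPKM in the in vivo and 3365, 5389.7 and 16695 RPKM in the NTC blastulas and was not called (adjusted p = 0.0556). Of 39 lysosomal genes 4 were called higher (10.3%, near the 8.81% of all genes) and 0 lower, while the list median was below the 0.85 of all genes and turned from 0.44 to -0.23 with median-ratio scaling. They were the protease Ctsb at 0.846, 0.567 and 0.0735 RPKM in the in vivo and 15.5, 10.9 and 9.03 RPKM in the NTC blastulas (3.10 ± 0.58), the alpha-galactosidase Gla at 0.604, 0 and 0.0533 RPKM in the in vivo and 4.13, 11.04 and 4.197 RPKM in the NTC blastulas (2.52 ± 0.59), the membrane protein Lamp2 at 3.55, 0.11 and 0.237 RPKM in the in vivo and 11.9, 14.6 and 26.6 RPKM in the NTC blastulas (3.27 ± 0.77) and Tfe3, a factor of lysosomal genes, at 0.117, 0.0252 and 0.047 RPKM in the in vivo and 2.45, 2.56 and 3.09 RPKM in the NTC blastulas (1.80 ± 0.40).

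Zinc finger genes named Zfp with a number, many of which encode repressors, held 29 higher and 3 lower calls among 211 tested (13.7% and 1.42%, against 8.81% and 0.657% of all genes), with a median of 1.08 (0.74 with median-ratio scaling). Over the 110 that averaged 0.5 RPKM in each group the median was 0.42, below the 0.48 of all genes in that fit. Of the genes called higher, Zfp809, a repressor of retroviral elements, was at 1.39, 0 and 0 RPKM in the in vivo and 9.43, 10.9 and 4.65 RPKM in the NTC blastulas (2.73 ± 0.64, adjusted p = 0.043). Of 133 long intergenic noncoding RNAs 17 were called higher (12.8%) and 0 lower, and of 228 processed pseudogenes 13 (5.7%) and 0.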
